A study of Mus musculus with 12 samples.

Results

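Janus kinases and STAT factors are the shared signalling relay of many cytokine receptors. A kinase docked on the receptor phosphorylates it, a STAT protein binds there and is phosphorylated in turn, and STAT dimers enter the nucleus and switch on genes, among them inhibitors that shut the relay down. In intestinal epithelium the best known user is IL-22, a cytokine of lymphoid cells, whose receptor works through the kinases Jak1 and Tyk2 and mainly through Stat3, a pathway known for driving antimicrobial defence and wound repair. IL-1b signals by a separate route that ends on NF-kB and does not use Janus kinases.

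The genes described are 8 rows of the deposited count table, picked by name: the STAT factors Stat2, Stat3, Stat5a, Stat5b and Stat6 and the kinases Jak1, Jak2 and Tyk2. They are 5 and 3 of 35869 gene symbols, and all 8 passed the filter on low counts, as did 13987 symbols in all. The study measured poly(A) RNA in mouse colonoids, which are epithelial spheroids grown in Matrigel from crypts of C57BL/6 colon, in medium with EGF and L-WRN conditioned medium. Of the 4 groups, the first received IL-1b at 100 ng/mL together with IL-22 at 1 ng/mL, the second IL-22 alone and the third IL-1b alone, each for 12 hours, while the fourth stayed unstimulated. Every group had 3 libraries. Whether these stem from separate mice or cultures is not given in the labels, so the p-values rest on the spread among libraries, which may be only technical. The labels give no other cell type for these cultures, and each cytokine was used at a single dose and time.

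Libraries held between 4703902 and 5804033 counts. All 12 epithelial markers were detected in every library, with a summed level of 2706 to 3510 CPM (counts relative to the scaled library total, in the usual unit of expression tables). Counts of abundant genes levelled off near their number of exon bases, such as Krt8 with 1785 to 1870 counts on 1958 exon bases. The epithelial sum is therefore no measure of how much epithelium a library held. The 12 leukocyte markers summed to 15.3 to 24.2 CPM with both cytokines and 14.9 to 25.7 CPM with IL-22, against 8.0 to 9.27 CPM in unstimulated colonoids. With IL-1b the sums were 72.6, 22.8 and 19.8 CPM, so IL-1b replicate 1 stood apart, with 104 counts of the pan-leukocyte gene Ptprc. The macrophage gene Cd68, chosen after its values were seen, made up much of the difference with IL-22, with 54, 45 and 50 counts with both cytokines and 51, 70 and 45 with IL-22, against 21, 12 and 22 in unstimulated colonoids. The other 11 markers summed to 34, 46 and 34 counts with IL-22, against 31, 32 and 21 in unstimulated colonoids. They summed to 376, 100 and 96 counts with IL-1b and 22, 62 and 63 with both cytokines. In this sum every IL-1b library, not replicate 1 alone, lay above every library of the other groups. Within it, Itgam gave 19, 16 and 15 counts with IL-22 and 13, 17 and 5 in unstimulated colonoids. Another gene model, Gm49368, covers 68.7% of the exon bases of Itgam, so the source of these counts is uncertain. Tyrobp was at 0 in all libraries, and 2 to 6 of the 12 markers were at 0 in each library. The 11 stromal and endothelial markers summed to 1.61 to 5.49 CPM with both cytokines and 1.70 to 3.51 CPM with IL-22, against 6.58 to 11.6 CPM with IL-1b and 5.69 to 8.37 CPM in unstimulated colonoids. Most of this came from the endothelial gene Pecam1, also chosen after its values were seen, which had 7, 5 and 6 counts with IL-22, against 39, 36 and 25 in unstimulated colonoids. The other 10 markers summed to 10, 5 and 3 counts with IL-22, against 7, 10 and 5 in unstimulated colonoids. Unstimulated replicate 1 also stood apart, in the antimicrobial lectin Reg3b, with 19.4 CPM against a lowest value of 0 in that group. Whether the leukocyte, stromal and endothelial marker counts came from other cells was not tested, nor was the part of any such cells in the results. Calls of the STAT and JAK genes that were lost without IL-1b replicate 1 or unstimulated replicate 1 are named.

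The STAT and JAK transcripts differed widely in level. Per length of exon (RPKM, the CPM per kilobase of exon), unstimulated colonoids carried most Jak2, the kinase of growth hormone and erythropoietin receptors among others, at 45.2 ± 2.46 RPKM (SD, n = 3), and Stat6, the factor of IL-4 and IL-13 signalling, at 43.5 ± 0.92 RPKM. The libraries of this pair overlapped in level, so their order is not resolved. Jak1, the kinase shared by most class II and gp130 receptors, followed at 29.95 ± 1.54 RPKM, then Stat3 at 18.5 ± 0.80 RPKM. Tyk2, which pairs with Jak1 on the IL-22 receptor, stood at 15.9 ± 1.14 RPKM, and Stat2, the partner of Irf9 in interferon signalling, at 12.6 ± 0.58 RPKM. The paralogs Stat5b and Stat5a, factors of prolactin and growth hormone signalling, came last at 8.77 ± 0.61 and 2.79 ± 0.04 RPKM. From Stat6 down to Stat5a the libraries of neighbours in this order did not overlap. Jak2 thus exceeded Stat5a 16.2-fold per exon base of all annotated exons in unstimulated colonoids, and the highest gene exceeded Stat5a 26.4-fold with both cytokines and 27.8-fold with IL-22.

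With IL-22 the order changed little. Stat3 stayed below Jak1 and above Tyk2 but reached 26.3 ± 2.33 RPKM with both cytokines and 27.8 ± 1.17 RPKM with IL-22 alone, close to Jak1 at 30.8 ± 1.46 and 32.0 ± 1.91 RPKM. Stat6 and Jak2 remained on top, Stat6 first with both cytokines (53.6 ± 1.78 against 49.1 ± 2.37 RPKM) and Jak2 first with IL-22 alone (55.8 ± 5.05 against 51.6 ± 3.96 RPKM, libraries overlapping). Stat2 and Tyk2 overlapped in both groups given IL-22. Levels per length depend on the length used. With the longest annotated transcript in place of all exons, Stat6 led in every group unstimulated Stat3 came to 29.2 ± 1.26 RPKM, and the highest gene exceeded the lowest 17.1-fold with both cytokines and 16.6-fold with IL-22, against 10.1-fold in unstimulated colonoids.

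**Figure D1:**
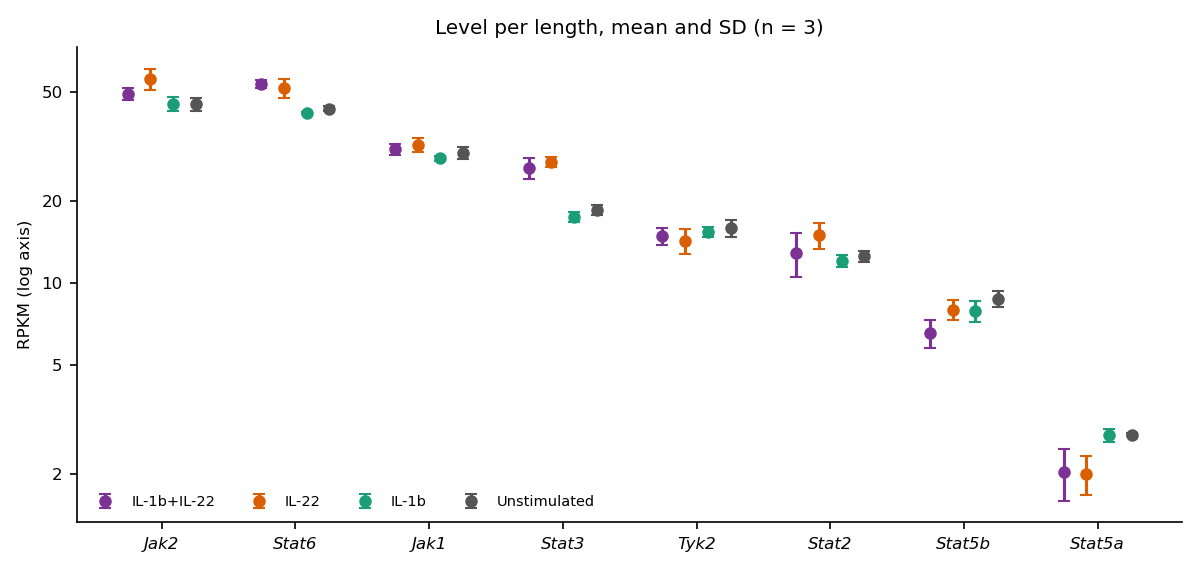
Level per exon length (RPKM, log axis) of the 8 genes in each group, mean and SD of 3 libraries, ordered by the unstimulated level. Jak2 and Stat6 lie highest and Stat5a lowest in all 4 groups, and Stat3 is the gene whose IL-22 groups (26.3 and 27.8 RPKM) stand furthest above the unstimulated group (18.5 RPKM) as a ratio.

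With IL-22 alone, Stat3, Jak2 and Stat6 rose and Stat5a fell against unstimulated colonoids, while Stat2, Stat5b, Jak1 and Tyk2 did not pass the test. These 3 higher and 1 lower of 8 stand beside 11.9% of all genes tested called higher and 10.6% called lower (22.5% in either direction). Calls are from edgeR's quasi-likelihood test with Benjamini-Hochberg adjustment over all genes tested, at an adjusted p under 0.05. The 2 groups did not overlap in CPM for 5 of the 8 genes, against 34.7% of all genes. The median log2 fold change was 0.17 over the 8 genes and 0.00 over all genes tested. In such bulk samples, fewer cells of a type and less RNA per cell cannot be told apart.

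Stat3 is the main carrier of IL-22 signals and takes up signals of IL-6 family cytokines as well. It lies on chromosome 11 of mm10, minus strand, from 100885098 to 100939540. Its levels were 253, 266 and 275 CPM with IL-22, against 185, 174 and 170 CPM in unstimulated colonoids. Every IL-22 library lay above every unstimulated library. The log2 fold change was 0.59 ± 0.07 (SE), or 1.5-fold with a 95% interval of 1.36 to 1.65, with an adjusted p of 3.00e-05 in edgeR's quasi-likelihood test. Without unstimulated replicate 1 the value was 0.62.

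The same comparison in the presence of IL-1b used other libraries throughout. Stat3 had 242, 276 and 234 CPM with both cytokines, against 161, 175 and 165 CPM with IL-1b alone. Again no library of these groups overlapped. Here the log2 fold change was 0.59 ± 0.07 and the adjusted p 2.47e-05 (edgeR quasi-likelihood). The step with IL-22 differed between the settings with and without IL-1b by 0.00 ± 0.09 on the log2 scale (95% interval −0.19 to 0.20, interaction term, unadjusted p = 0.975). Against unstimulated colonoids the combined treatment gave 0.51 ± 0.07, an adjusted p of 7.35e-05.

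The promoters were searched for the letters of a STAT site, since Stat3 is known to act on its own gene. RefSeq's windows on GRCm38.p6 run from 250 bases before to 50 after each start, and the 8 genes had 10 of them. The gamma-activated site to which Stat3 dimers bind (TTCNNNGAA, which reads the same on both strands) was searched in all 32851 windows and was found in 8.3% of them, in 0 of the 10 windows of the STAT and JAK genes, and in the window of Socs3, the feedback inhibitor that Stat3 induces. The first line gives the 250 bases before the Stat3 start at chr11:100939541-100939790, minus strand, and the second, for comparison, 61 bases of the Socs3 window at chr11:117969486-117969546, minus strand, whose match begins at position −154 from the start and is in capitals.
Stat3: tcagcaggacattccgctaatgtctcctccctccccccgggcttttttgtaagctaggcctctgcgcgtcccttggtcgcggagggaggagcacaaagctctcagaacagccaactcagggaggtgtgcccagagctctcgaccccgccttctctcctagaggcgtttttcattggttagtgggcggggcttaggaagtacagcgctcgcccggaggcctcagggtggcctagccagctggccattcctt
Socs3: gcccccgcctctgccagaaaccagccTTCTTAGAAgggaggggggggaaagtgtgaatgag
A match is a run of letters and not a measured binding site, and its absence says only that these letters are not in this window.

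Stat6 transmits IL-4 and IL-13 signals and lies on chromosome 10 of mm10, plus strand, from 127642986 to 127660957. It reached 213, 247 and 223 CPM with IL-22, against 193, 194 and 187 CPM in unstimulated colonoids. The lowest IL-22 library was above the highest unstimulated one, and the rise was small, 1.19-fold with a 95% interval of 1.09 to 1.29 (log2 0.25 ± 0.06, edgeR quasi-likelihood adjusted p = 0.00593). With both cytokines it had 230.4, 245 and 233 CPM, against 186, 185 and 183 CPM with IL-1b alone, where it also rose (log2 0.36 ± 0.06, adjusted p = 0.000404). Both cytokines against unstimulated colonoids gave 0.30 ± 0.06 with an adjusted p of 0.00120. The step with IL-22 was larger beside IL-1b by 0.11 ± 0.08 (95% interval −0.06 to 0.28), which did not pass the interaction test (unadjusted p = 0.187).

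Jak2 lies on chromosome 19 of mm10, plus strand, from 29251828 to 29313080. Its IL-22 libraries had 269, 309.9 and 263 CPM, against 226, 216 and 240.5 CPM in unstimulated colonoids, without overlap. It rose 1.23-fold with a 95% interval of 1.11 to 1.37 (log2 0.30 ± 0.07, edgeR quasi-likelihood adjusted p = 0.00637). The combined treatment gave 259, 235 and 247 CPM, against 242, 224 and 217 CPM with IL-1b alone, and these groups overlapped. Neither that difference (0.12 ± 0.07, adjusted p = 0.237) nor the combined treatment against unstimulated colonoids (0.12 ± 0.07, adjusted p = 0.220) was called. Jak2 was thus called with IL-22 alone and not in the combination, but the difference between these steps, −0.19 ± 0.10 on the log2 scale (95% interval −0.40 to 0.02), did not pass the interaction test (unadjusted p = 0.0795, adjusted p = 0.973).

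Stat5a and Stat5b were the genes called lower. They are neighbours of Stat3 on chromosome 11 of mm10, Stat5b from 100780731 to 100850724 on the minus strand and Stat5a from 100859351 to 100885169 on the plus strand. Stat5a was the least abundant of the 8 genes, with 51 to 114 counts a library. It had 12.2, 16.8 and 13.96 CPM with IL-22, against 19.8, 20.2 and 19.7 CPM in unstimulated colonoids. With both cytokines the values were 15.9, 16.7 and 10.9 CPM, against 20.95, 19.8 and 18.8 CPM with IL-1b alone. All 6 libraries given IL-22 lay below all 6 libraries without it.

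Stat5a fell with IL-22 alone by 0.48 ± 0.16 on the log2 scale (edgeR quasi-likelihood adjusted p = 0.0433) and with both cytokines by 0.45 ± 0.16 (adjusted p = 0.0475), each against the unstimulated group. Against IL-1b the combined treatment gave −0.44 ± 0.16, which missed the threshold (adjusted p = 0.0507). These calls were near the limit: the first was made under 9 and the second under 8 of 23 other settings or sets of libraries. In DESeq2 the adjusted p was 0.0833 with IL-22 and 0.0887 with both cytokines. Both calls were also lost without IL-1b replicate 1 (edgeR adjusted p = 0.0554 and 0.0590) and without unstimulated replicate 1 (0.0883 and 0.0928).

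Stat5b had 38.3, 39.2 and 31.5 CPM with both cytokines and 40.1, 46.5 and 46.4 CPM with IL-22. IL-1b alone gave 43.7, 47.8 and 39.9 CPM, and unstimulated colonoids had 52.2, 48.0 and 45.5 CPM. It fell with both cytokines against unstimulated colonoids by 0.42 ± 0.10 on the log2 scale (edgeR quasi-likelihood adjusted p = 0.00924), and the libraries did not overlap. This call was lost without replicate 3 of the combined treatment, its lowest library (adjusted p = 0.0502), and without IL-1b replicate 1 and unstimulated replicate 1 together (−0.36, adjusted p = 0.0566). IL-22 alone gave −0.13 ± 0.10 (adjusted p = 0.389) and IL-1b alone −0.15 ± 0.10 (adjusted p = 0.629), neither of them called.

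The Stat5 paralogs can trade reads, since they arose by duplication. Of all 75-base runs of their annotated transcripts, 387 were shared, which is 5.12% of those of Stat5a and 6.99% of those of Stat5b. Some likeness is also seen in the bases before an annotated start of each gene, in a pair of windows picked for it. Each gene has 2 RefSeq windows, and the pair with the longest common run was taken and lined up on that run. Both starts lie inside the gene models given above. The next lines set side by side 72 bases from a RefSeq window of each gene, at chr11:100860403-100860474 on the plus strand and chr11:100822571-100822642 on the minus strand, and 54 of the 72 positions hold the same base. Capitals mark their longest common run, of 16 bases, which begins at position −32 from the Stat5a start and −23 from the Stat5b start.
Stat5a: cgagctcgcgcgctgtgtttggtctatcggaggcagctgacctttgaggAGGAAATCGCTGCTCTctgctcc
Stat5b: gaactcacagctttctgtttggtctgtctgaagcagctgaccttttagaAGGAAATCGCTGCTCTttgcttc
In addition, 72 exon bases are common to Stat3 and Stat5a on opposite strands, which is 0.756% of Stat3 and 1.01% of Stat5a. The libraries came from a stranded kit, but the strand setting of the counting is not given, so the source of reads in this stretch is uncertain. Stat6 shares 0.909% of its exon bases with Nab2 and Jak1 0.0553% with Raver2, also on opposite strands.

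**Figure D2:**
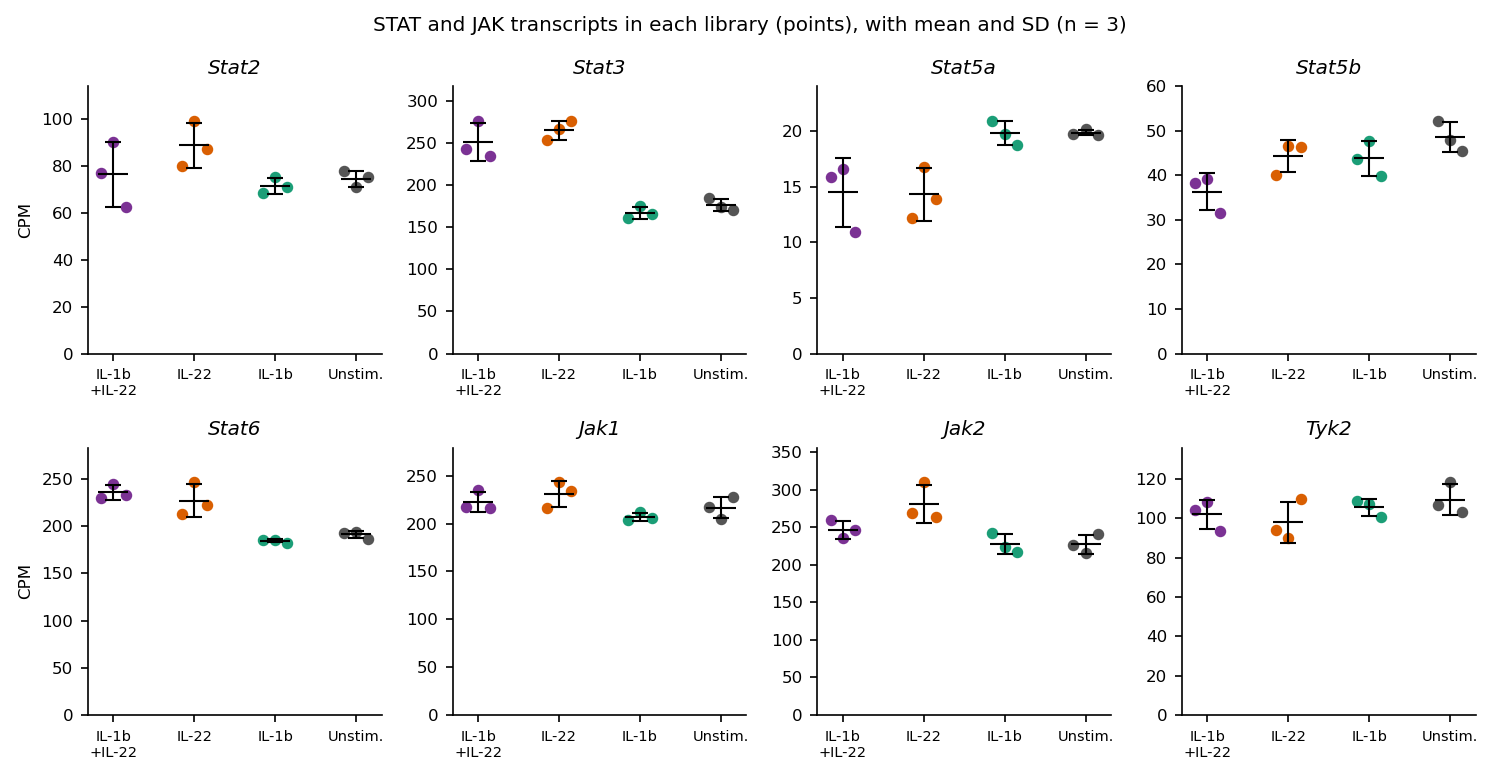
CPM of each gene in each library (points, replicates 1 to 3 left to right), with mean and SD of 3 libraries, in the groups given both cytokines, IL-22, IL-1b and none. Stat3 and Stat6 are higher in all 6 libraries with IL-22 than in the 6 without, Stat5a is lower in all 6, and Jak1 and Tyk2 overlap.

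Stat2, on chromosome 10 of mm10 from 128270559 to 128292849, plus strand, joins Irf9 in the complex that answers type I and type III interferon. It had 76.7, 89.97 and 62.2 CPM with both cytokines and 79.9, 99.0 and 86.9 CPM with IL-22. The IL-1b libraries had 68.4, 75.1 and 70.7 CPM and the unstimulated ones 77.5, 70.7 and 75.1 CPM. With IL-22 alone all libraries were above the unstimulated ones, but the difference was not called (log2 0.25 ± 0.11, 95% interval 0.01 to 0.49, edgeR quasi-likelihood adjusted p = 0.123). It had an adjusted p of 0.0468 when no filter on low counts was applied. The combined treatment gave 0.04 ± 0.11 against unstimulated colonoids (adjusted p = 0.831) and spread more widely than any other group.

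Among the 10 windows of the STAT and JAK genes, that of Stat2 alone held the core of the interferon-stimulated response element, which the complex of Stat2 and Irf9 binds. The core was searched on both strands as GAAA, 2 bases of any kind and GAAA, which 3.44% of all windows contain. The match, at position −222 from the start, reads TTTCAGTTTC on the gene's strand and is in capitals in these 90 bases of the window, chr10:128270248-128270337, plus strand.
Stat2: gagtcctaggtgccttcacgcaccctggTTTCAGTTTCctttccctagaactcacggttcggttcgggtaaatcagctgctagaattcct

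Jak1 and Tyk2, the kinases that sit on the IL-22 receptor itself, were not called in any of the 6 comparisons. Jak1 (chromosome 4 of mm10, 101152367 to 101265282, minus strand) had 217, 235 and 216 CPM with both cytokines and 216, 243 and 234 CPM with IL-22. It had 204, 212 and 206 CPM with IL-1b and 217, 205 and 227 CPM in unstimulated colonoids. The difference between IL-22 and unstimulated colonoids was 0.09 ± 0.06 with a 95% interval of −0.03 to 0.22 on the log2 scale, so a rise above 1.16-fold lies outside the interval.

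Tyk2 (chromosome 9 of mm10, 21104068 to 21131243, minus strand) had 104, 108 and 93.8 CPM with both cytokines and 94.2, 89.9 and 109.8 CPM with IL-22. It had 109, 107 and 101 CPM with IL-1b and 107, 118 and 103 CPM in unstimulated colonoids. With IL-22 the difference from unstimulated colonoids was −0.16 ± 0.08 (95% interval −0.33 to 0.02, edgeR quasi-likelihood adjusted p = 0.198). It was called, at −0.25 with an adjusted p of 0.0384, only when IL-22 replicate 3, the highest of its group, was left out. An antisense gene, 1700084C06Rik, covers 8.07% of the exon bases of Tyk2, and what share of the counts stems from that stretch was not measured.

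IL-1b alone moved no STAT or JAK transcript past the test. Of all genes tested, 0.0715% were called in this comparison by edgeR's quasi-likelihood test, so 0 of 8 is near what that share gives. The 8 differences ran between −0.15 ± 0.10 for Stat5b and 0.00 ± 0.07 for Jak2 on the log2 scale. None of the 8 had an unadjusted p under 0.05 in edgeR's test, where 1338 of all 13987 genes tested did. The lowest was 0.157 for Stat5b, and DESeq2 called none of the 8. For Stat3 the 95% interval of the difference was −0.22 to 0.06, and for Stat6, whose IL-1b libraries all lay just below the unstimulated ones, −0.17 to 0.07. Stat6 was the only 1 of the 8 without overlap, against 16.7% of all genes.

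Adding IL-1b to IL-22 called 0 of the 8 as well, where edgeR called 0.0786% of all genes (0.0643% higher and 0.0143% lower), and DESeq2 called none of the 8. Unadjusted, 2 of the 8 lay under 0.05, both lower in the combination, beside 1440 of all 13987 genes tested. Stat5b differed by −0.28 ± 0.11 (edgeR quasi-likelihood adjusted p = 0.385) and Jak2 by −0.18 ± 0.07 (adjusted p = 0.387). These were also the 2 genes without overlap between the groups, against 12.1% of all genes. The interaction of the cytokines was called for 0 of 8 and for 0% of all genes, of which 705 had an unadjusted p under 0.05 and 4 were called by DESeq2. None of the 8 had an unadjusted interaction p under 0.05, Jak2 being lowest.

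Both cytokines against unstimulated colonoids called 4 of 8, namely Stat3 and Stat6 higher and Stat5a and Stat5b lower, beside 13.7% of all genes higher and 13.3% lower (27% in all). Without overlap were 4 of 8, against 42.3%. Both cytokines against IL-1b called Stat3 and Stat6 higher and none lower, beside 13.3% higher and 13% lower (26.3% in all), and 5 of 8 did not overlap, against 44.4%. With library totals, or the upper quartile, as the only scaling, Stat5a and Stat5b were called lower here too.

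**Figure D3:**
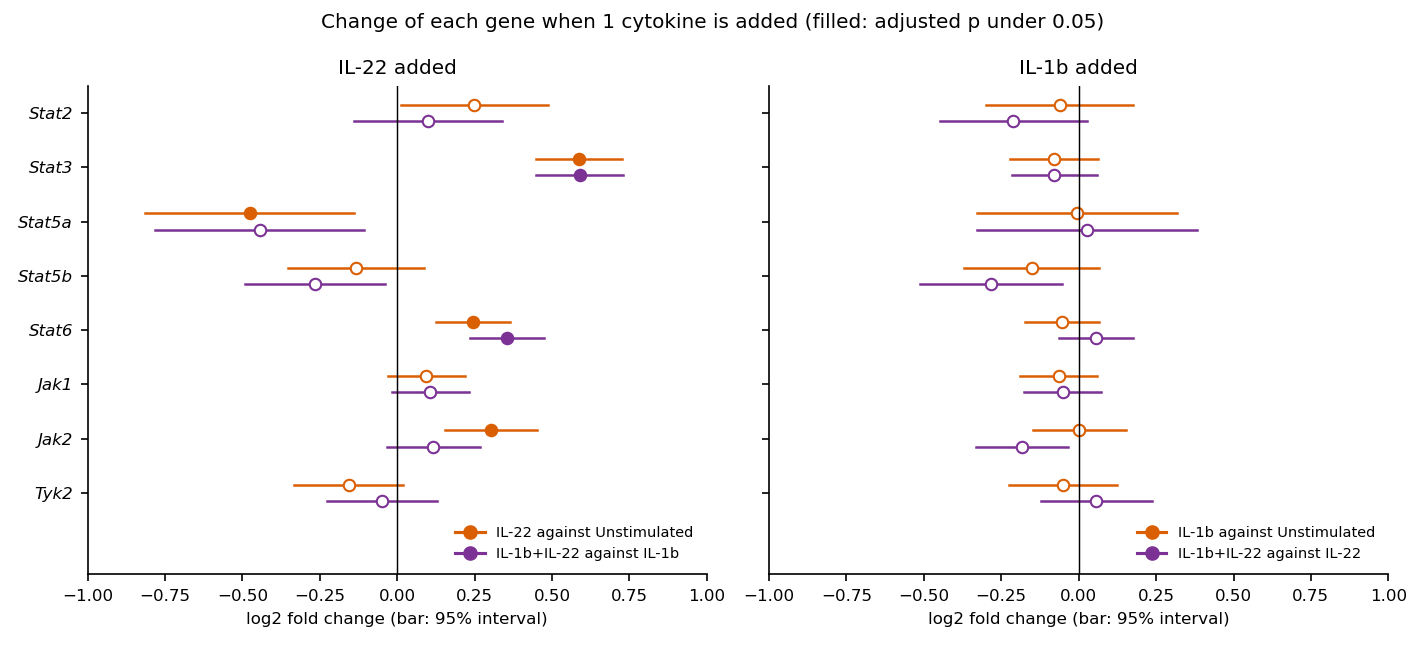
Log2 fold change of each gene when IL-22 is added (left) or IL-1b is added (right), alone or on top of the other cytokine, with 95% intervals from the edgeR fit. Filled points passed an adjusted p of 0.05; Stat3 shows the same step of 0.59 in both settings with IL-22, and no point is filled on the right.

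Calls with IL-22 sit on a table-wide slope. With IL-22, genes with few counts per exon base had lower values as a class, and genes with many had higher values. The median log2 fold change of IL-22 against unstimulated colonoids was −0.18 over 3199 genes under 0.02 counts per exon base and 0.09 over 1498 genes between 0.2 and 0.4. Stat5a, at 0.0126 counts per exon base, is in the first class, and Jak2 and Stat6, at 0.253 and 0.247, are in the second. After this slope was removed, Stat3 was at 0.56 (adjusted p = 3.94e-05, edgeR quasi-likelihood), Jak2 at 0.21 (0.0170) and Stat6 at 0.16 (0.0326). Stat5a was at −0.31 and no longer called (0.221), nor was it with both cytokines (−0.28, adjusted p = 0.260). Stat5b stayed called with both cytokines against unstimulated colonoids, at −0.36 (adjusted p = 0.0230).

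**Figure D4:**
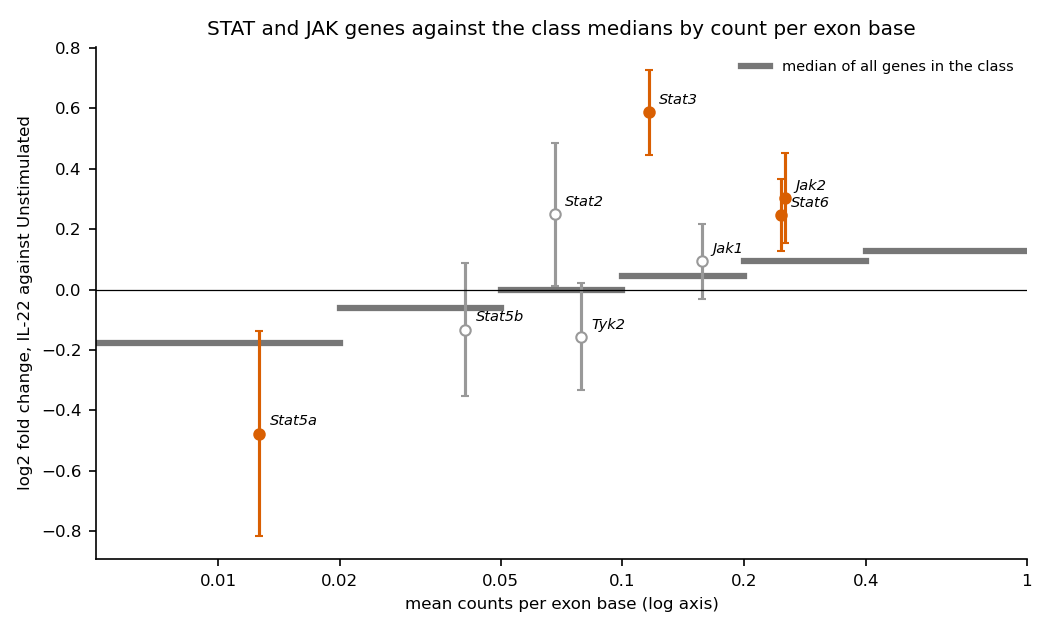
Log2 fold change of IL-22 against unstimulated colonoids for each gene (points, 95% interval; filled, adjusted p under 0.05) against its mean counts per exon base on a log axis, with the median of all genes in each class of counts per exon base as grey bars. Stat3, at 0.59, stands above the median of its class by more than its interval, whereas the interval of Stat5a, centred on −0.48, reaches its class median of −0.18.

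Ratios within a library do not depend on how libraries are scaled, but they are not free of the slope on counts per exon base. For IL-22 against unstimulated colonoids, the class median was 0.05 for the class of Stat3 and −0.06 for that of Stat5b. They were chosen after the values were seen and carry no test. There were 6.93 ± 0.56 counts of Stat3 for each of Stat5b with both cytokines and 5.99 ± 0.30 with IL-22 (SD, n = 3). With IL-1b the ratio was 3.82 ± 0.27 and in unstimulated colonoids 3.63 ± 0.10. The ratio of Stat3 to Tyk2 was 2.46 ± 0.12 with both cytokines and 2.72 ± 0.23 with IL-22, against 1.58 ± 0.09 with IL-1b and 1.62 ± 0.13 unstimulated. In each case all 6 libraries with IL-22 lay above all 6 without. As a share of the summed RPKM of the 5 STAT factors, Stat3 made up 25.9% ± 0.54 with both cytokines and 26.7% ± 1.41 with IL-22, against 21.3% ± 0.51 with IL-1b and 21.5% ± 0.36 unstimulated, while Stat6 made up 49.4% to 53.0% in the 4 groups. The ratio of Jak1 to Jak2 counts was 0.905 ± 0.08 with both cytokines and 0.826 ± 0.06 with IL-22, against 0.911 ± 0.06 with IL-1b and 0.952 ± 0.01 unstimulated.

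Upstream of the kinases, the IL-22 receptor itself was not called. Il22ra1, its specific chain, had 126, 146 and 145 CPM with IL-22, against 140, 139 and 149 CPM in unstimulated colonoids (log2 −0.04 ± 0.07, edgeR quasi-likelihood adjusted p = 0.737), and its partner Il10rb gave −0.05 ± 0.06 (adjusted p = 0.614). Of 29 subunits of receptors that work through JAKs, 18 were tested, of which 5 rose and 1 fell with IL-22 (median log2 fold change 0.01, against 0.00 for all genes). That is 33.3% of them, beside 22.5% of all genes called in either direction. Osmr, the oncostatin M receptor chain, averaged 23.7 ± 10.8 CPM with IL-22 and 0.68 ± 0.41 CPM in unstimulated colonoids, a log2 fold change of 5.09 ± 0.51. Its unstimulated libraries had only 0.36 to 1.14 CPM, so the size of this rise rests on few counts. Il4ra, the receptor chain upstream of Stat6, had 134, 133 and 123 CPM with IL-22, against 59.7, 54.7 and 51.8 CPM in unstimulated colonoids (1.23 ± 0.07, adjusted p = 6.75e-08). Its partner chain Il13ra1 rose by 0.73 ± 0.07 and Il6st (gp130, the shared chain of IL-6 family receptors) by 0.49 ± 0.11, while Il11ra1, the IL-11 receptor chain, fell by 0.69 ± 0.18.

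With both cytokines, 6 of the 18 tested subunits rose and 1 fell against unstimulated colonoids, and 6 rose and 0 fell against IL-1b (38.9% and 33.3% called, beside 27% and 26.3% of all genes). Il4ra was again higher in each (1.44 ± 0.07 and 1.22 ± 0.07), as was Osmr (4.43 ± 0.54 and 4.03 ± 0.51). With IL-1b alone Osmr averaged only 0.89 ± 0.31 CPM. The fall of the IL-6 receptor chain Il6ra with both cytokines (−0.98 ± 0.35, adjusted p = 0.0495 from edgeR) was called under 5 of 22 other settings. An overlapping gene model covers 9.51% of the exon bases of Il4ra and 14.9% of those of Il10rb.

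Of 21 negative regulators of the relay, 20 were tested, and 3 rose and 1 fell with IL-22 (median −0.10). These are 20.0% of them, near the 22.5% of all genes called in this comparison. Socs3 had 198, 219 and 211 CPM with IL-22, against 19.1, 13.8 and 7.40 CPM in unstimulated colonoids (3.95 ± 0.16 on the log2 scale, edgeR quasi-likelihood adjusted p = 1.84e-09). Ptpn2, a phosphatase of JAKs and STATs, rose by 0.34 ± 0.06 and Socs6, another SOCS family member, by 0.37 ± 0.08. Cish, an inhibitor known as a Stat5 target, fell by 0.59 ± 0.11 (adjusted p = 0.00233), with 17.3, 23.7 and 20.2 CPM against 30.8, 30.7 and 30.2 CPM in unstimulated colonoids. The number of regulators that fell was 1 to 4 over the other settings.

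With both cytokines 5 regulators rose and 3 fell against unstimulated colonoids, and 5 rose and 4 fell against IL-1b (40.0% and 45.0% called, beside 27% and 26.3% of all genes). Socs1, an inhibitor of JAK kinase activity, is among them at 0.88 ± 0.25 against unstimulated colonoids (adjusted p = 0.0175 from edgeR), with 9.69, 10.98 and 7.94 CPM against 6.41, 4.55 and 4.55 CPM, a call made under 20 of 23 other settings. With IL-22 alone it was not called (0.20 ± 0.26). Cish fell by 0.75 ± 0.12 and the ubiquitin ligase Cblb by 0.56 ± 0.14. Overlapping models cover 11.5% of the exon bases of Cish.

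Of the 10 partners and adaptors of STATs and JAKs, 9 were tested, and 2 rose and 1 fell with IL-22 (median 0.02), which is 33.3% beside 22.5% of all genes. Irf9, the DNA-binding partner of Stat2, had 51.2, 51.8 and 56.2 CPM with IL-22, against 31.5, 40.0 and 47.8 CPM in unstimulated colonoids (0.42 ± 0.13, adjusted p = 0.0360 from edgeR). That call was made under 13 of 23 other settings and not without unstimulated replicate 1 (0.28, adjusted p = 0.131), and with both cytokines Irf9 was not called (0.20 ± 0.13, adjusted p = 0.296). Stam, an adaptor that binds Jak2, rose by 0.37 ± 0.05 with IL-22 and by 0.30 ± 0.05 with both cytokines. Sh2b1, another adaptor of Jak2, fell with IL-22 by 0.26 ± 0.08 (adjusted p = 0.0360), called under 17 of 23 other settings and not without unstimulated replicate 1 (−0.20, adjusted p = 0.134). With both cytokines 1 of the 9 rose and 0 fell, whether against unstimulated colonoids or IL-1b (11.1%, beside 27% and 26.3% of all genes).

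Downstream, most of the tested genes known as Stat3 targets rose. Of 23 listed, 22 were tested, and 14 rose and 0 fell with IL-22 (median log2 fold change 0.41), 14 rose and 0 fell with both cytokines against unstimulated colonoids (0.68) and 17 rose and 0 fell against IL-1b (0.57). Of all genes, 11.9%, 13.7% and 13.3% were called higher in these comparisons. Socs3, Osmr and Il4ra are in this list too. Lrg1, a secreted glycoprotein of the acute phase, averaged 37.8 ± 10.6 CPM with IL-22 and 0.18 ± 0.18 CPM in unstimulated colonoids, where it had 3 counts in all, so no fold is given. Reg3b rose by 2.51 ± 0.67 with IL-22 (adjusted p = 0.0160 from edgeR), called under 19 of 23 other settings, a value that rests on unstimulated replicate 1, which had 109 of its counts where the other unstimulated libraries had 1 and 0. Likewise Reg3g with both cytokines was at 3.70 ± 0.66 (33.3 ± 11.9 against 2.49 ± 4.32 CPM unstimulated), with 42, 0 and 0 counts in the unstimulated libraries. For neither gene is a fold given without that library. The list was chosen with results of these data known, and its direction is no independent evidence.

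Genes driven by Stat2 with Irf9 were mostly not called. Of 23 interferon-stimulated genes, 20 were tested. With IL-22, 1 rose, which was Irf9 itself, and 0 fell (median −0.01), and with both cytokines 0 rose and 1 fell against unstimulated colonoids, the RNA sensor Dhx58 at −0.40 ± 0.14 (adjusted p = 0.0448 from edgeR, called under 10 of 23 other settings). Each is 5.0% of the list, beside 22.5% and 27% of all genes. Against IL-1b, 0 of the 20 rose and 6 fell with both cytokines (median −0.75). Of all genes, 13.3% were called higher and 13% lower in this comparison (26.3% in either direction). IL-1b alone against unstimulated colonoids gave a list median of 0.28, against −0.01 for all genes. There 0 of 20 were called, beside 0.0715% of all genes, Usp18 being at 1.43 ± 0.55 (adjusted p = 0.469 from edgeR). Usp18, which blocks interferon receptor signalling, averaged 0.40 ± 0.33 CPM with both cytokines and 3.53 ± 2.10 CPM with IL-1b (log2 −3.03 ± 0.71). Its libraries with both cytokines had only 0.20 to 0.78 CPM, so the size of this fall rests on very few counts. The interferon-induced Rtp4 averaged 4.6 ± 0.78 and 10.3 ± 4.04 CPM in the same groups (−1.15 ± 0.36). It was called under 17 of 23 other settings and not without IL-1b replicate 1, at −0.99 with an adjusted p of 0.0968 from edgeR. Without IL-1b replicate 1, the library with the highest leukocyte sum, 2 of the 20 fell and the median was −0.52. By contrast, 10 fell without IL-1b replicate 3 and 3 without replicate 3 of the combined treatment. Usp18 was called under 22 of 22 other settings. Its value ranged from −3.92 without replicate 2 of the combined treatment to −2.50 without IL-1b replicate 1.

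For Stat5 and Stat6, 14 genes known as targets in mouse were listed, and only 4 were tested, since the others did not pass the filter on low counts. Of these 4, too few for a share to be read, 2 rose and 1 fell in each of the 3 comparisons that add IL-22. Retnlb, a goblet cell protein induced by IL-13, averaged 12.5 ± 8.06 CPM with IL-22 and 1.08 ± 0.78 CPM in unstimulated colonoids (3.47 ± 0.59, and 2.83 without IL-22 replicate 1). Its unstimulated libraries had only 0.19 to 1.64 CPM, so the size of this rise rests on few counts. Bcl6, a repressor, rose by 0.89 ± 0.14 with IL-22 and by 0.61 ± 0.14 with both cytokines, and the gene that fell was Cish. In the 2 comparisons that add IL-1b and in the interaction, edgeR's quasi-likelihood test called 0 genes of every list named here, including the receptors, regulators and partners. DESeq2 and the other settings called 0 to 4 in any of them.

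**Figure D5:**
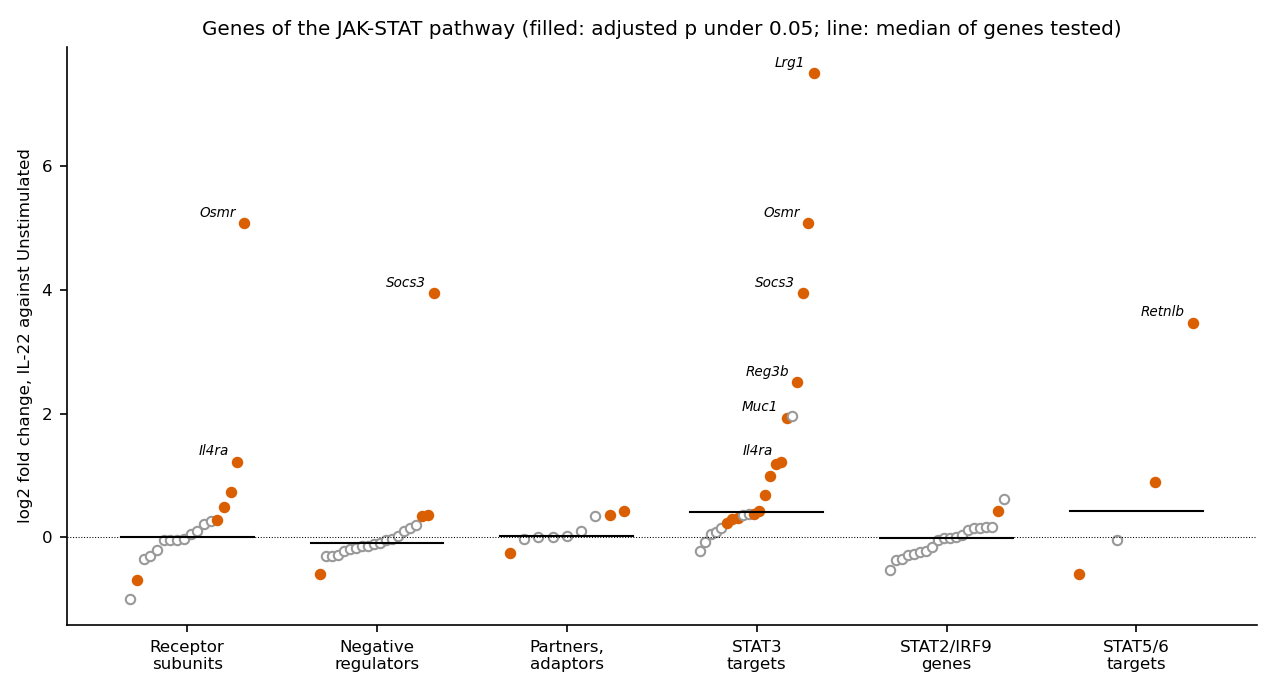
Log2 fold change of IL-22 against unstimulated colonoids for each tested gene of 6 lists of the JAK-STAT pathway, ordered by size within a list (filled, adjusted p under 0.05; line, median of the list). Of 22 Stat3 targets 14 are filled, all above 0, against 1 of 20 genes driven by Stat2 and Irf9; the point of Lrg1 rests on 3 counts in unstimulated colonoids, and genes in more than 1 list are drawn in each.

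The genes whose profile over the 12 libraries was closest to each called gene were sought among 12007 others at 5 CPM or more, as the smallest root mean square difference of centred log2 CPM. Closest to Stat3, whose own deviation was 0.303, were Atp10b (0.0476), a phospholipid flippase, Sgsh (0.0537), a lysosomal sulfatase, and Hyou1 (0.0624), a chaperone of the endoplasmic reticulum. Closest to Stat6 (own deviation 0.160) were Mall (0.0241), Fuca1 (0.0333), a lysosomal fucosidase, and Spire2 (0.0352), an actin nucleator. Jak2 (own deviation 0.144) lay closest to Picalm (0.0433), a clathrin adaptor, Shisa5 (0.0495) and Vps4b (0.0515). For Stat5b (0.187) these were Rb1 (0.0715), Mavs (0.0732) and Rbl1 (0.0740), and for Stat5a (0.287) Tnip1 (0.108), Tmco6 (0.115) and Sphk2 (0.117). Over the 4 group means instead, Atp10b stayed first for Stat3 and Mall was second for Stat6, and other genes replaced the remaining ones.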

How the data were processed

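Poly(A) RNA of 12 colonoid libraries was sequenced with a stranded kit, per the labels' protocols. The authors deposited whole-number counts per gene symbol. The genome build is mm10, per the submitters' processing notes, while tools, annotation and strand setting of the counting have no entry in the labels (not given in the sources used here). Counts of abundant genes levelled off near their number of exon bases, so an alternative corrected them as if each position had been counted once.

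From the deposited counts, edgeR 4.0.16 (R 4.3.3) was run with TMM scaling, filterByExpr, 1 mean per group and the quasi-likelihood F test over 13987 genes, with 8 residual degrees of freedom and Benjamini-Hochberg adjustment; calls are at an adjusted p under 0.05. The SE of a log2 fold change is its size over the root of F. CPM are counts relative to the library's total over the genes tested, times a TMM factor of 0.957 to 1.04. RPKM divide CPM by the union of GENCODE exons on mm10. Of the symbols, 26762 matched that annotation directly, 571 through a RefSeq synonym and 8536 not at all. Promoter windows are RefSeq's (GRCm38.p6). The fit was tested on simulated data. Libraries of 1 group differed by more than sampling noise (chi-square per degree of freedom 1.85 to 3.48). Each was counted as 1 unit in the fit, and this spread does not show whether they are independent.

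Same-numbered libraries of different groups correlated at −0.29 to 0.22 in their deviations from the group means (18 pairs). With 3 libraries per group this cannot decide whether the numbers mark a shared animal or day. The alternatives were DESeq2 1.42.0, other scalings, filters and priors, a replicate block, fits of 2 groups, and leaving out each library; removal of the trend on counts per exon base (lowess span 0.3), the position correction and leaving out replicate 1 of the IL-1b and unstimulated groups together were added after seeing the data. The genes and lists were chosen with earlier results of these data known. Besides the STAT and JAK genes, the text names Il22ra1, Il10rb, Il6st, Il4ra, Socs1, Socs3, Cish, Ptpn2 and Irf9 whatever their values, and per list up to 4 called genes with the largest change, at least 1 CPM on average and groups that do not overlap, in the 2 comparisons of IL-22 or both cytokines with unstimulated colonoids, up to 2 in the others.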

Additional observations from a re-analysis of the deposited data

How the results depend on the processing

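Under 23 alternatives (22 for the interaction), no called value of a STAT or JAK gene changed sign. Stat3 and Stat6 stayed called under all 23 in each of the 3 comparisons that add IL-22, and Jak2 with IL-22 alone, while Stat5a was called under 9, 8 and 5 of 23 and Stat5b, with both cytokines against unstimulated colonoids, under 21. The numbers of the 8 genes called were 4 instead of 2 for both cytokines against IL-1b with library totals or the upper quartile as scaling. For both cytokines against unstimulated colonoids they were 2 instead of 4 without replicate 1 of the IL-1b and unstimulated groups together, and 2 to 4 when libraries were left out singly. The causes were not tested.

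All 48 changes of sign were in values that were not called and lay near 0 on the log2 scale. For IL-1b against unstimulated colonoids, Stat5a came to 0.0118 with library totals, 0.00123 with the upper quartile, 0.000855 without a filter and 0.00111 with the trend removed. Without both replicates 1, Stat2 was at 0.00462 and Jak2 at −0.0416. For both cytokines against unstimulated colonoids, Stat2 was at −0.00348 with library totals and −0.00491 with the upper quartile, and Jak1 at −0.0177 with the trend removed. The interaction of Stat3 was −0.00144 in DESeq2, −0.00330 with the upper quartile, −0.00186 without a filter, −2.56e-06 with the trend removed, −0.00409 with corrected positions and −0.0661 without both replicates 1, where that of Jak1 was −0.00810.

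Leaving out single libraries gave −0.0397 to 0.0347 for Stat5a, −0.0365 to 0.0473 for Jak2 and −0.0866 to 0.0145 for Tyk2 with IL-1b against unstimulated colonoids, and −0.0919 to 0.162 for Stat2 with both cytokines. For both cytokines against IL-22 the ranges were −0.0812 to 0.188 for Stat5a and −0.00682 to 0.148 for Tyk2, and against IL-1b −0.0366 to 0.217 for Stat2 and −0.0920 to 0.000144 for Tyk2. Those of the interaction were −0.0725 to 0.0415 for Stat3, −0.0793 to 0.187 for Stat5a and −0.0346 to 0.0488 for Jak1.

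Whether the replicate numbers pair the libraries is not given in the labels. With the replicate block, 4, 0, 4, 0 and 2 of the 8 genes were called in the 5 comparisons and 0 in the interaction, as without it. Under the block Stat3 with IL-22 was at 0.59 with an edgeR adjusted p of 9.24e-05. Of all genes, IL-1b alone called 10, against 32 in DESeq2, 212 without a filter and 28 without unstimulated replicate 3. Both cytokines against IL-22 called 11, against 87 in DESeq2, 336 without a filter, 7 with the block, 6 with 2 groups in the fit, 5 without both replicates 1 and 3 to 72 without single libraries. IL-22 alone called 3144, and 1992 without unstimulated replicate 2. The interaction called 0, against 4 in DESeq2, 50 without a filter and 1 without IL-1b replicate 1. Stat5a, with 51 to 114 counts a library, is limited most by depth.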
